A study of Mus musculus with 6 samples.

Results

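The 55 genes described here encode the chains of the collagens and laminins, the trimeric proteins from which extracellular fibres and basement membranes are built. They are all genes of the deposited expression table whose mouse symbol is a collagen alpha chain (Col, number, a, number) or a laminin alpha, beta or gamma chain (Lama, Lamb or Lamc and a number) and whose value was above 0 in at least 2 of the 6 libraries. They make up 44 collagen and 11 laminin genes among 31245 genes in the table. The rule itself uses no treatment contrast, but it was set with earlier results of these data known. RNA was sequenced from primary cortical neuronal cultures of mouse pups, prepared at postnatal day 1 and kept for 12 to 13 days in vitro on coverslips coated with poly-D-lysine, in Neurobasal A with GlutaMax and B27. In the NGPF2 group, 3 cultures received NGPF2, whose name the labels do not spell out, at 1.5 ng/ml for 2 h. In the vehicle group, 3 cultures received PBS for the same time. Strain and sex were not given in the sources used here. The series describes 3 pairs of vehicle and treated cultures from 3 independent experiments. The library names of replicates 2 and 3 share a stem that replicate 1 lacks, so pair 1 is treated below as 1 library set and pairs 2 and 3 as the other, which the titles themselves do not state.

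Each collagen is a triple helix of alpha chains made of the same or of different gene products. Fibrillar collagens assemble into the cross-linked fibrils of connective tissue, and in the brain they are known mainly from the meninges and the walls of large vessels. Type IV collagen and the laminins form the interlinked networks of basement membranes, which line the pial surface and the blood vessels of the brain. Each laminin is a heterotrimer of an alpha, a beta and a gamma chain, bound at the cell surface by integrins and dystroglycan. Collagens that do not form fibrils include beaded filaments (type VI), chains that decorate fibrils (the FACIT collagens), membrane-spanning collagens and multiplexins, which carry heparan or chondroitin sulphate and sit in basement membranes.

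Total counts per library ran from 17478070 (NGPF2 3) to 45193691 (NGPF2 1), and 3 counts corresponded to between 1.92 and 5.38 normalized counts. Levels below are normalized counts, that is counts divided by a size factor of the library. Differences are log2 differences of the normalized count plus 1, which understate the change of low genes. Of the 55 chains, 49 had a mean of at least 10 normalized counts and were tested among 16653 genes. Each test is limma's, 2-sided, with Benjamini-Hochberg adjustment over all 16653 genes, and a chain is called at an adjusted p under 0.05. The labels state neither separate animals nor separate cultures for replicates 2 and 3 beyond the series' mention of independent experiments, so the p-values measure the spread between these libraries. Gene positions are those of GENCODE M21 on GRCm38 (mm10). The strand setting of the counting was not given in the sources used here, and exon bases that a chain shares with another gene were at most 6.27% of its own (Lamc3).

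The treated cultures of pairs 2 and 3 had lower normalized counts of most chains than their vehicle cultures, whereas in pair 1 the differences were centred near 0. The median difference between NGPF2 and vehicle over the 49 tested chains came to -0.07, -0.72 and -0.72 in pairs 1 to 3, against -0.0031, -0.0061 and 0 over all 16653 genes. In pairs 2 and 3 together, 31 of the 49 chains were lower and 8 were higher in both, against 6144 and 6040 of all genes. Over all 55 chains, the untested ones included, the medians were -0.09, -0.72 and -0.55.

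With all 3 pairs in the model and the pair as a block, no chain was called, and neither was any other gene (0% of 16653). The smallest adjusted p of a chain was 0.379. At an unadjusted p under 0.05 there were 14 chains and 2166 genes, and limma's voom called 0 chains, with 1 chain at an unadjusted p under 0.05. Within replicates 2 and 3 alone, 14 chains were lower and 1 was higher. That is 28.6% of the tested chains lower, against 11.3% of all genes lower and 9.77% higher. When the scale was set by library totals, which lowered the median of all genes to -0.13, 18 chains were lower, and the split of all called genes moved from 1627 higher and 1884 lower to 982 higher and 2659 lower. With quantile scaling 9 chains were lower, which is 18.4% of them, against 10.2% of all genes. Once vehicle 2 or vehicle 3 was left out, which leaves a single vehicle library, limma called no chain and no other gene. That loss is thus not particular to the chains. Fewer chains were called without NGPF2 3. Among the chains that lost their calls, Col6a1, Col9a1, Col11a1 and Col19a1 did so without NGPF2 2 and also without NGPF2 3, and Col4a1, Col22a1 and Lama2 lost theirs without NGPF2 3. Called instead were Col5a1, Col5a3, Col8a2, Col9a3 and Lamc1 without NGPF2 2, and Col1a2 and Col5a2 without NGPF2 3, all of them lower with NGPF2.

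**Figure D1:**
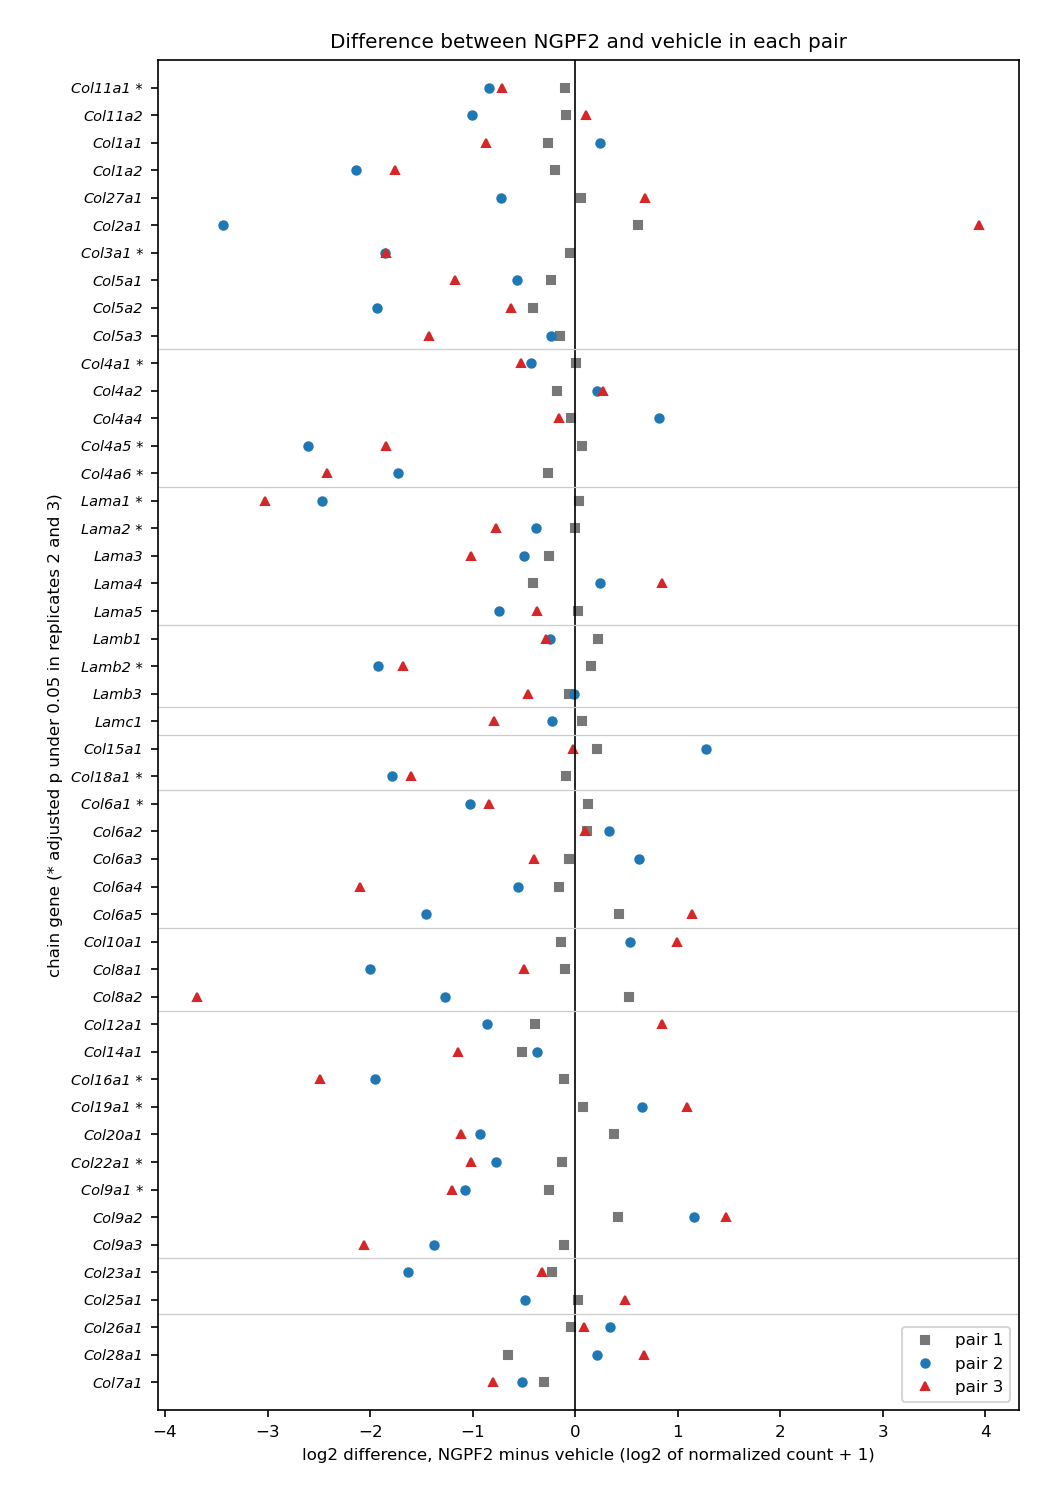
Log2 difference between NGPF2 and vehicle (horizontal axis, log2 of the normalized count plus 1) for 48 of the 49 tested chains (vertical axis, grouped by class) in pair 1 (grey squares), pair 2 (blue circles) and pair 3 (red triangles). The grey squares lie near 0, with a median of -0.07, while the median of pairs 2 and 3 is -0.72 in each, and asterisks mark 14 of the 15 chains called in replicates 2 and 3.

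Pair 1 also differed from pairs 2 and 3 in the cultures that received vehicle only. Vehicle 2 and 3 had less of 17 chains and more of 2 than vehicle 1, which is 34.7% of the tested chains lower against 9.42% of all genes lower and 10.5% higher. Col14a1, among the 17, reached the filter of a mean of 10 normalized counts only through pair 1, where it was high. Vehicle 1 is a single library, and its spread was taken to be that of the other libraries. Without vehicle 2 or without vehicle 3, limma called no chain and almost no other gene, so that loss is not particular to the chains. The 2 comparisons share vehicle 2 and vehicle 3, so their values are given side by side below and are not combined.

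**Figure D2:**
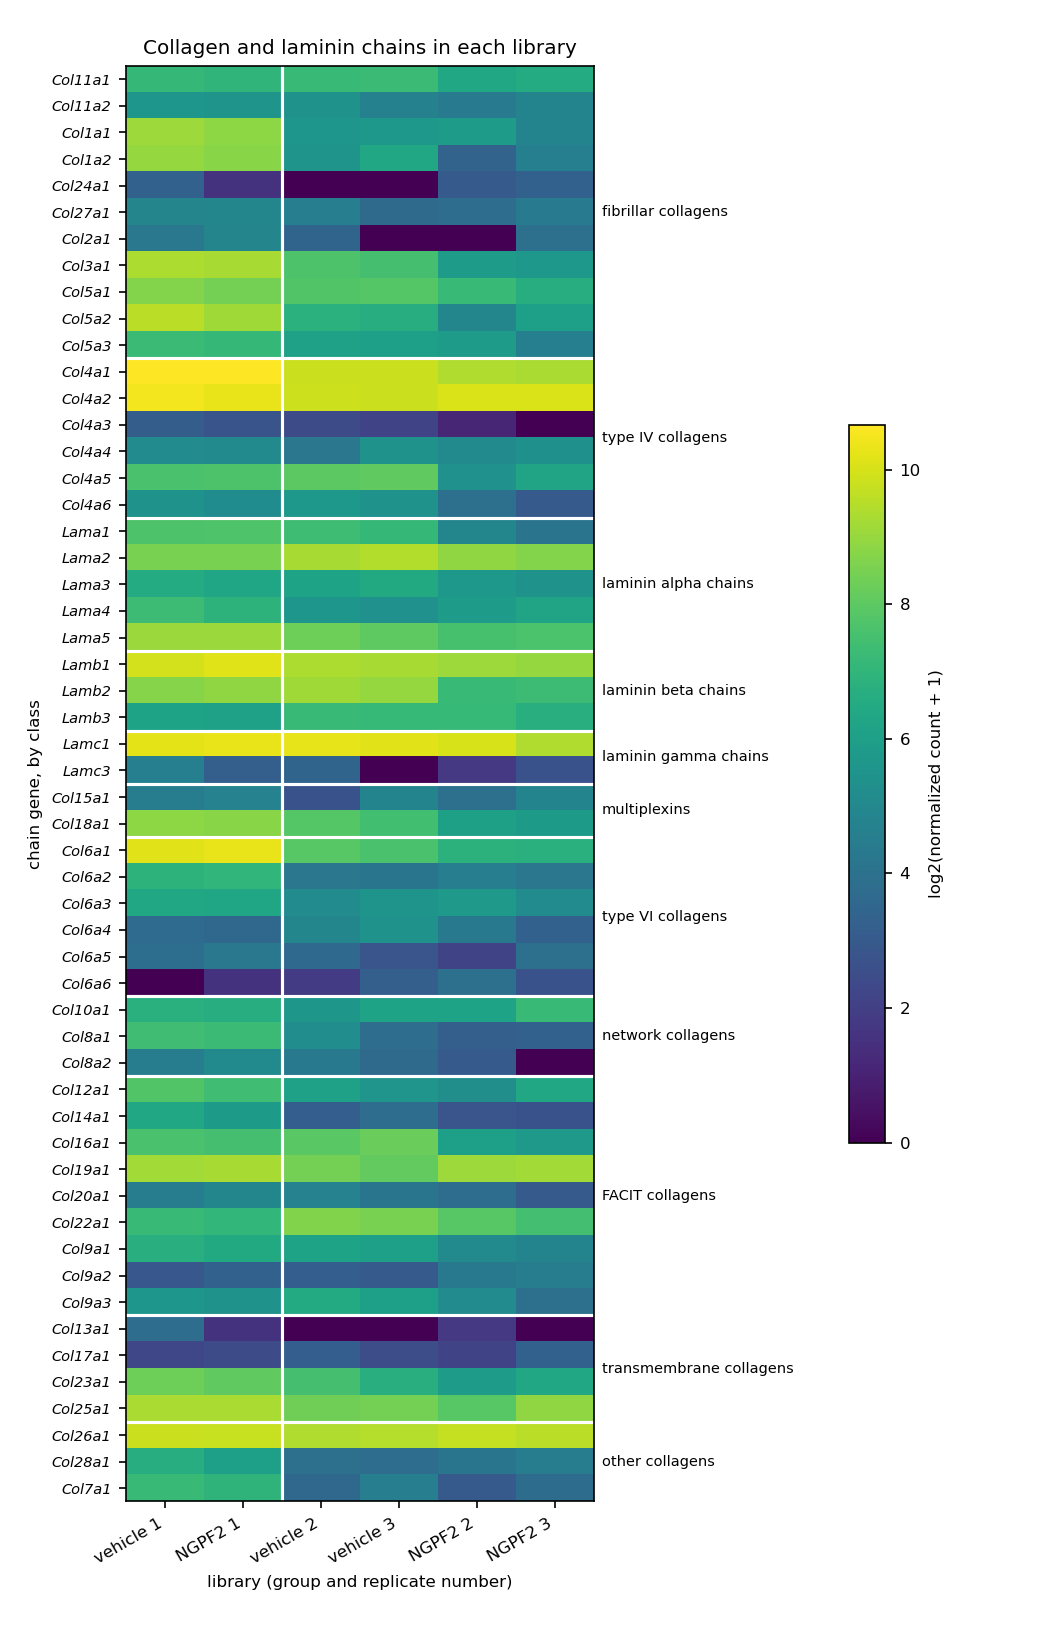
Level of 54 of the 55 chains (rows, by class) in the 6 libraries (columns), as log2 of the normalized count plus 1, from dark (0) to yellow (high). The rows of Col1a1, Col1a2, Col3a1, Col5a2, Col6a1 and Col6a2 are brightest in vehicle 1 and NGPF2 1, left of the white line, with Col6a1 at 1164 and 1267 normalized counts there and at 108 to 238 in the other 4 libraries.

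Of the 10 tested fibrillar collagens 2, Col3a1 and Col11a1, were lower with NGPF2 in replicates 2 and 3. That is 20%, beside 11.3% of all genes lower. Col3a1 (chr1:45311538-45349706, plus strand) encodes the homotrimeric type III collagen of soft tissues and vessel walls. Vehicle 1 to 3 held 645, 206 and 184 normalized counts of Col3a1, and NGPF2 1 to 3 held 622, 56.2 and 50.2. The treated libraries of pairs 2 and 3 lay below both of their vehicle libraries, and those of pair 1 lay close together and above all others. The difference in replicates 2 and 3 was -1.85 ± 0.19 on the log2 scale (SE; adjusted p = 0.0058). Between the vehicle cultures it was -1.72 ± 0.19 on the log2 scale (SE; adjusted p = 0.00707). The bases before its first annotated exon (RefSeq, GRCm38.p6, chr1:45311288-45311537, plus strand) are printed because Col3a1 had the smallest adjusted p of the fibrillar chains in both comparisons. Capitals mark the match to the TATA box, TATAAA.
Col3a1: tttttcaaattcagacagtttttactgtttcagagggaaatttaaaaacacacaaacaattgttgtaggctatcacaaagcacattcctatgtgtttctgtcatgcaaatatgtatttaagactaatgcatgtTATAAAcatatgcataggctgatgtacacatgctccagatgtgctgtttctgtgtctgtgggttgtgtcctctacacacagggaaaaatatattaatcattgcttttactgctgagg

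Col11a1, a chain of the thin fibrils of type XI collagen, had 135, 145 and 154 normalized counts in vehicle 1 to 3 and 126, 80.1 and 93.3 in NGPF2 1 to 3. Both treated libraries of pairs 2 and 3 were below all 4 others, and the vehicle libraries of the 2 sets differed little. The difference in replicates 2 and 3 was -0.78 ± 0.19 on the log2 scale (SE; adjusted p = 0.0441). The other 8 tested fibrillar chains were not called for treatment. Among them, Col1a1 and Col1a2, the partner chains of type I collagen, did not share a pattern in pairs 2 and 3. Levels of Col1a1 were 548, 47.3 and 50.1 normalized counts in vehicle 1 to 3 and 456, 56.2 and 26.9 in NGPF2 1 to 3. For Col1a2, vehicle 1 to 3 had 504, 45.5 and 81.1 normalized counts and NGPF2 1 to 3 had 438, 9.56 and 23.3. Col1a1 was higher with NGPF2 in pair 2 and lower in pair 3 (log2 differences of 0.24 and -0.87), and Col1a2 was lower in both (-2.14 and -1.75). For Col1a2 the difference over replicates 2 and 3 was -1.95 ± 0.54 on the log2 scale (SE; adjusted p = 0.0617).

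Of the 10 tested fibrillar chains, those of type I collagen had the largest differences between the vehicle sets. The log2 differences of vehicle 2 and 3 from vehicle 1 were -3.47 for Col1a1 and -3.03 for Col1a2 (adjusted p = 0.0103 and 0.0292). Col5a2, which regulates fibril diameter together with Col5a1, had 756, 112 and 100.2 normalized counts in vehicle 1 to 3 and 569.9, 28.7 and 64.6 in NGPF2 1 to 3. Its vehicle libraries differed between the sets by -2.82 ± 0.48 on the log2 scale (SE; adjusted p = 0.0192). Col5a1 itself had 406, 218 and 228 normalized counts in vehicle 1 to 3 and 344, 147 and 100.5 in NGPF2 1 to 3. It narrowly missed the threshold for treatment, at -0.87 ± 0.23 on the log2 scale (SE; adjusted p = 0.0537), and between the vehicle sets, at -0.86 ± 0.27 on the log2 scale (SE; adjusted p = 0.0864). In all, 4 of 10 fibrillar chains were lower in vehicle 2 and 3 than in vehicle 1 and none was higher, beside 9.42% of all genes lower and 10.5% higher. The rest of the class was low: Col5a3 ranged from 23.3 to 152 normalized counts, Col11a2 from 20.3 to 47.7, Col27a1 from 11.9 to 28.8 and Col2a1 from 0 to 28.1. Col24a1, from 0 to 9.03, was not tested.

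The type IV collagens hold 3 pairs of neighbouring genes that are transcribed away from each other. In replicates 2 and 3, Col4a1, Col4a5 and Col4a6 were lower with NGPF2, and Col4a2 and Col4a4 were not called. The lower chains are 60% of the 5 tested, beside 11.3% of all genes. Col4a1 and Col4a2 encode the common vascular network, Col4a3 to Col4a5 the network of kidney and some epithelia, and Col4a5 and Col4a6 chains of smooth muscle and epithelial basement membranes. In GENCODE M21 the first exons of Col4a1 (minus strand) and Col4a2 (plus strand) share 22 bases, the starts of Col4a4 and Col4a3 lie 71 bases apart, and those of Col4a6 and Col4a5 lie 1308 bases apart. The stretches between or before these starts are printed, from RefSeq's GRCm38.p6 windows, because in each pair the neighbours start from the same stretch of DNA or close to it. The first is chr8:11312801-11312830, read on the plus strand, where capitals mark the 22 shared bases and not a motif. The motif search found 1 GC box in it and no other motif. The second is chr1:82586850-82586920, also on the plus strand, and spans the whole gap between Col4a4 and Col4a3, with none of the motifs searched. The last stretches precede the first annotated exons of Col4a5 (chrX:141475169-141475384, plus strand) and Col4a6 (chrX:141474077-141474326, minus strand), with a CCAAT box and a GC box (GGGCGG, here read from the other strand) in capitals.
Col4a1 and Col4a2: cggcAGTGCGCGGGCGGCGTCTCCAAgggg
Col4a4 and Col4a3: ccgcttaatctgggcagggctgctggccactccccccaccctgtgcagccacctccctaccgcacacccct
Col4a5: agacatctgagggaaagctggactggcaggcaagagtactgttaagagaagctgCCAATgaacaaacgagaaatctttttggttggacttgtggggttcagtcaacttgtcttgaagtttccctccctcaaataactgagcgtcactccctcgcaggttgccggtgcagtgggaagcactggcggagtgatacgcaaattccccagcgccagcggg
Col4a6: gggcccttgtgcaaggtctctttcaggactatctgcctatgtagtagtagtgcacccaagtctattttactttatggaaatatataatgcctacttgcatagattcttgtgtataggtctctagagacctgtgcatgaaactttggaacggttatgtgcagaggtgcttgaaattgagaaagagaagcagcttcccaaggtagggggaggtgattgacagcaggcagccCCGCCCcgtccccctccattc

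Col4a1 (chr8:11198423-11312826, minus strand) and Col4a2 (chr8:11312805-11449287, plus strand), the partners that share a start, did not keep the same ratio. Counted as normalized counts, Col4a1 was at 1612, 909 and 906 in vehicle 1 to 3 and at 1625, 676 and 626 in NGPF2 1 to 3. Col4a2 had 1443, 934 and 897 normalized counts in vehicle 1 to 3 and 1272, 1082 and 1082 in NGPF2 1 to 3. In pairs 2 and 3 the treated libraries were the lowest of all for Col4a1, whereas for Col4a2 they lay above their vehicle libraries. The differences in replicates 2 and 3 were -0.48 ± 0.09 on the log2 scale (SE; adjusted p = 0.0252), for Col4a1, and 0.24 ± 0.08 on the log2 scale (SE; adjusted p = 0.0987), for Col4a2. Per length (FPKM, fragments per length of transcript and depth of library, from the recovered counts), the ratio of Col4a1 to Col4a2 was 1.09, 0.949 and 0.985 in vehicle 1 to 3, and 1.25, 0.609 and 0.564 in NGPF2 1 to 3. The treated libraries of pairs 2 and 3 thus had the 2 lowest ratios. The difference between the 2 genes' differences was not tested. If strand was not used in the counting, reads from the 22 shared bases cannot be assigned, which is 0.295% of the exon bases of Col4a1. Both genes were lower in vehicle 2 and 3 than in vehicle 1, with log2 differences of -0.83 (adjusted p = 0.00954) and -0.66 (adjusted p = 0.0139).

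Col4a5 (chrX:141475385-141689234, plus strand) and Col4a6 (chrX:141165403-141474076, minus strand) were both lower. Vehicle 1 to 3 held 195, 252 and 267 normalized counts of Col4a5, and NGPF2 1 to 3 held 205, 40.6 and 73.6. Levels of Col4a6 were 43.2, 50.0 and 42.9 normalized counts in vehicle 1 to 3 and 35.8, 14.3 and 7.18 in NGPF2 1 to 3. For both genes the treated libraries of pairs 2 and 3 were well below the other 4, which lay close to each other whatever the library set. The difference in replicates 2 and 3 was -2.22 ± 0.31 on the log2 scale (SE; adjusted p = 0.0112), for Col4a5. It was -2.08 ± 0.44 on the log2 scale (SE; adjusted p = 0.0317), for Col4a6. NGPF2 2 and 3 held only 12 and 4 counts of Col4a6, and its call was lost with no filter, no trend or quantile scaling. Between the vehicle sets neither Col4a5 nor Col4a6 was called, with adjusted p-values of 0.503 and 0.917. Col4a4 ranged from 17.9 to 44.1 normalized counts with groups that overlap, and Col4a3, from 0 to 7.74, was not tested.

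**Figure D3:**
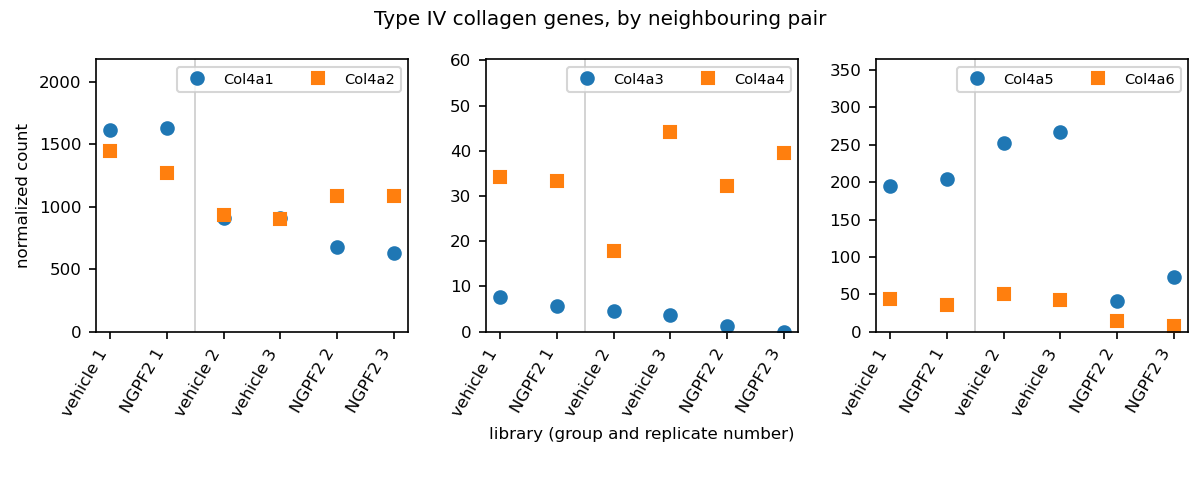
Normalized counts (vertical axes, each starting at 0) of the 3 neighbouring pairs of type IV collagen genes in the 6 libraries (horizontal axes), with replicate 1 left of the grey line. Col4a1 falls below Col4a2 in NGPF2 2 and NGPF2 3 (676 against 1082 and 626 against 1082), and Col4a5 and Col4a6 are both lowest in those libraries.

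Of the laminin alpha chains, which carry the main receptor-binding domain, Lama1 and Lama2 were lower with NGPF2 in replicates 2 and 3. Lama1 (chr17:67697259-67822647, plus strand) is the alpha chain of early embryonic and pial basement membranes. For Lama1, vehicle 1 to 3 had 204, 163 and 138 normalized counts and NGPF2 1 to 3 had 208, 28.7 and 16.1. Its treated libraries in pairs 2 and 3 were far below all others, and both libraries of pair 1 were the highest. The difference in replicates 2 and 3 was -2.75 ± 0.34 on the log2 scale (SE; adjusted p = 0.00854). Lama2, the alpha chain of muscle and glial basement membranes that is mutated in a congenital muscular dystrophy, had 371, 617 and 700.1 normalized counts in vehicle 1 to 3 and 369, 472 and 409 in NGPF2 1 to 3. Its vehicle libraries of pairs 2 and 3 were the highest, and NGPF2 2 and 3 lay between those and pair 1. The difference was -0.58 ± 0.13 on the log2 scale (SE; adjusted p = 0.0361) with treatment. It was 0.82 ± 0.16 on the log2 scale (SE; adjusted p = 0.0269) between the vehicle sets, making Lama2 1 of the 2 chains higher in vehicle 2 and 3.

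Lama5 and Lama4, the alpha chains of vessel basement membranes, were called only between the vehicle sets. Counted as normalized counts, Lama5 was at 527, 316 and 255 in vehicle 1 to 3 and at 537, 189 and 197 in NGPF2 1 to 3. Lama4 had 157, 47.3 and 40.5 normalized counts in vehicle 1 to 3 and 118, 56.2 and 73.6 in NGPF2 1 to 3. Lama5 was lower in the treated libraries of both pairs 2 and 3, at -0.55 ± 0.16 on the log2 scale (SE; adjusted p = 0.0713), which missed the threshold, and Lama4 lay higher in them, at 0.54 ± 0.27 on the log2 scale (SE; adjusted p = 0.216). Vehicle 2 and 3 were below vehicle 1, with log2 differences of -0.89 for Lama5 and -1.82 for Lama4 (adjusted p = 0.0323 and 0.018). Lama3, the alpha chain of epithelial anchoring laminin, ranged from 43.1 to 94.8 normalized counts and was not called. The FPKM ratio of Lama5 to Lama1 was between 1.54 and 2.16 in the 3 vehicle libraries, 2.16 in NGPF2 1, 5.51 in NGPF2 2 and 10.2 in NGPF2 3.

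Among the beta and gamma chains, Lamb2 was lower with NGPF2 in replicates 2 and 3, while the more abundant Lamb1 and Lamc1 were not called. Lamb2 (chr9:108479736-108490530, plus strand) is the beta chain of synaptic and vessel basement membranes. Vehicle 1 to 3 held 428, 564 and 508 normalized counts of Lamb2, and NGPF2 1 to 3 held 477, 148 and 158. The 2 treated libraries of pairs 2 and 3 lay far below the other 4, and vehicle 2 and 3 were the highest. Lamb2 had the smallest adjusted p of the 49 chains in replicates 2 and 3, -1.80 ± 0.13 on the log2 scale (SE; adjusted p = 0.00266). The bases before its first annotated exon, printed for that reason, are chr9:108479612-108479735 on the plus strand (RefSeq, GRCm38.p6), and none of the motifs searched was found in them.
Lamb2: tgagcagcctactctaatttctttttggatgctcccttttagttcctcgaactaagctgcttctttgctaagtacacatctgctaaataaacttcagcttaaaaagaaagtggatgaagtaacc

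Lamb1, the other widespread beta chain, had 967, 653 and 614 normalized counts in vehicle 1 to 3 and 1125, 549.9 and 502 in NGPF2 1 to 3. Its treated libraries in pairs 2 and 3 were slightly below their vehicle libraries, at -0.27 ± 0.11 on the log2 scale (SE; adjusted p = 0.138), and vehicle 2 and 3 were below vehicle 1, at -0.61 ± 0.12 on the log2 scale (SE; adjusted p = 0.0292). The FPKM ratio of Lamb1 to Lamb2 ranged from 1.17 to 2.29 over the vehicle libraries and was 2.39, 3.76 and 3.22 in NGPF2 1 to 3, so that within pairs 2 and 3 the treated libraries had the higher ratios. Lamb3, the beta chain of epithelial anchoring laminin, had 71.6, 144 and 141 normalized counts in vehicle 1 to 3 and 68.4, 142 and 102 in NGPF2 1 to 3. It was not called. Lamc1, the gamma chain shared by most laminins, had 1207, 1218 and 1176 normalized counts in vehicle 1 to 3 and 1263, 1042 and 680.2 in NGPF2 1 to 3. NGPF2 3 alone stood low, and the difference was -0.51 ± 0.21 on the log2 scale (SE; adjusted p = 0.15). Lamc3, a gamma chain outside the common trimers, had 23.2, 9.82 and 0 normalized counts in vehicle 1 to 3 and 8.32, 2.39 and 5.38 in NGPF2 1 to 3. It was not tested.

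Counted together, 7 of 15 tested type IV and laminin chains were lower with NGPF2 in replicates 2 and 3, which is 46.7%, beside 2 of 10 fibrillar chains and 5 of the 24 other collagens. Over all tested genes 11.3% were lower. The median differences of the 15 chains were -0.0066, -0.43 and -0.77 in pairs 1, 2 and 3. In the same treated libraries the summed markers of every listed cell type except neurons were also lower than in vehicle 2 and 3. The lists were not uniform in this. Called lower were 11 of 11 tested astrocyte, 8 of 10 microglia and 5 of 8 mural cell markers. Of oligodendrocyte lineage markers 5 of 11 were, of fibroblast and meningeal markers 2 of 9 and of endothelial markers 1 of 6. Their values are given among the cell type markers.

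Col18a1 was the multiplexin that was lower. This basement membrane collagen, whose end fragment is endostatin, had 465, 229 and 171 normalized counts in vehicle 1 to 3 and 438, 65.8 and 55.6 in NGPF2 1 to 3. Both treated libraries of pairs 2 and 3 were below their vehicle libraries, which were below both libraries of pair 1. The difference was -1.69 ± 0.23 on the log2 scale (SE; adjusted p = 0.0105) with treatment. Between the vehicle sets it was -1.23 ± 0.26 on the log2 scale (SE; adjusted p = 0.0316). The other multiplexin, Col15a1, had 21.9, 5.36 and 27.4 normalized counts in vehicle 1 to 3 and 25.6, 14.3 and 26.9 in NGPF2 1 to 3. Its groups overlapped.

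Type VI collagen forms beaded filaments around cells, and of its chains Col6a1 and Col6a2 were lower in vehicle 2 and 3 than in vehicle 1, while Col6a1 was also lower with NGPF2. Levels of Col6a1 were 1164, 238 and 193 normalized counts in vehicle 1 to 3 and 1267, 116 and 108 in NGPF2 1 to 3. Both libraries of pair 1 were far above the other 4, and within pairs 2 and 3 the treated libraries were the lower. Col6a1 differed by -0.93 ± 0.18 on the log2 scale (SE; adjusted p = 0.0261) with treatment. Between the vehicle sets the difference was -2.44 ± 0.19 on the log2 scale (SE; adjusted p = 0.00321), the smallest adjusted p of the chains there. Col6a2, its partner chain, had 119, 17.9 and 16.7 normalized counts in vehicle 1 to 3 and 129, 22.7 and 17.9 in NGPF2 1 to 3. It was not called for treatment, at 0.21 ± 0.36 on the log2 scale (SE; adjusted p = 0.711), but differed between the vehicle sets by -2.71 ± 0.36 on the log2 scale (SE; adjusted p = 0.0106). Col6a3, the large chain of the main trimer, had 80.0, 33.9 and 45.3 normalized counts in vehicle 1 to 3 and 76.8, 52.6 and 34.1 in NGPF2 1 to 3. Neither comparison called it. Col6a4 and Col6a5 stayed between 3.59 and 41.8 normalized counts and were not called, and Col6a6, from 0 to 14.3, was not tested.

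Among the FACIT collagens, which bind to the surface of fibrils or membranes, Col16a1, Col22a1 and Col9a1 were lower with NGPF2 in replicates 2 and 3 and Col19a1 was higher, the only chain of the 49 called higher. With no trend in limma's spread the call of Col19a1 was lost and Col9a2 was called higher in its place. Col19a1 (chr1:24261890-24587472, minus strand) is known from interneurons, where it takes part in synapse formation. For Col19a1, vehicle 1 to 3 had 580.4, 349 and 272 normalized counts and NGPF2 1 to 3 had 611, 549.9 and 579.7. The treated libraries of pairs 2 and 3 reached the level of pair 1, and the 2 vehicle libraries of pairs 2 and 3 were the lowest of the 6. The difference was 0.87 ± 0.16 on the log2 scale (SE; adjusted p = 0.0209) with treatment. Between the vehicle sets it was -0.91 ± 0.19 on the log2 scale (SE; adjusted p = 0.0305). Col16a1 (chr4:130047840-130099283, plus strand), a minor homotrimeric collagen, was lower. Counted as normalized counts, Col16a1 was at 196, 247 and 297 in vehicle 1 to 3 and at 182, 63.4 and 52.0 in NGPF2 1 to 3. Both treated libraries of pairs 2 and 3 were far below the other 4, and the difference was -2.22 ± 0.21 on the log2 scale (SE; adjusted p = 0.00427). Stretches before these 2 chains, which moved in opposite directions, are printed from RefSeq (GRCm38.p6) and hold none of the motifs searched. For Col19a1 the stretch is chr1:24587473-24587687 on the minus strand, up to its first annotated exon. For Col16a1 it is chr4:130047590-130047661 on the plus strand. It was cut where another annotated exon starts, so it ends short of the start of Col16a1 at 130047840. The bases from there to the start of Col16a1 are not printed, and the missing match does not cover them.
Col16a1: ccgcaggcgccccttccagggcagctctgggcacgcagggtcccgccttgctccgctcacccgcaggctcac
Col19a1: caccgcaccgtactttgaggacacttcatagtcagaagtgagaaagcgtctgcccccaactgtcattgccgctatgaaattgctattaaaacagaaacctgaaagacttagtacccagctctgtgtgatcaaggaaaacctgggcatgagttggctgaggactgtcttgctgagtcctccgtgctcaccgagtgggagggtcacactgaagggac

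Col22a1, a chain of tissue junctions such as that of muscle and tendon, had 146, 401 and 364 normalized counts in vehicle 1 to 3 and 133, 234.3 and 179.5 in NGPF2 1 to 3. Its 2 vehicle libraries of pairs 2 and 3 were the highest, NGPF2 2 and 3 lay between, and pair 1 was lowest. The difference was -0.89 ± 0.18 on the log2 scale (SE; adjusted p = 0.0267) with treatment. It was 1.38 ± 0.23 on the log2 scale (SE; adjusted p = 0.0171) between the vehicle sets, where Col22a1 and Lama2 were the 2 chains higher in vehicle 2 and 3. Col9a1, a cartilage FACIT chain, had 106, 71.5 and 63.2 normalized counts in vehicle 1 to 3 and 88.3, 33.5 and 26.9 in NGPF2 1 to 3. The treated libraries of pairs 2 and 3 were lowest, at -1.14 ± 0.27 on the log2 scale (SE; adjusted p = 0.0433). Its partners Col9a2, at 1.31 ± 0.41 on the log2 scale (SE; adjusted p = 0.0828), and Col9a3, at -1.72 ± 0.49 on the log2 scale (SE; adjusted p = 0.0652), were not called and differed in sign. Col14a1, a fibril-associated chain of skin and tendon, had 80.0, 8.04 and 13.1 normalized counts in vehicle 1 to 3 and 55.6, 5.98 and 5.38 in NGPF2 1 to 3. It was called between the vehicle sets only, at -2.84 ± 0.53 on the log2 scale (SE; adjusted p = 0.0241). Col12a1 ranged from 37.1 to 218 normalized counts and Col20a1 from 7.18 to 28.8, and neither was called.

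For background, 4 sequence motifs were searched on both strands in all RefSeq promoter windows, which run from 250 bases before to 50 bases after a start. The windows matched 40 of the 55 chains by symbol, 44 windows in all, among 32851 windows. CCAAT was in 31.8% of the chains' windows and in 37.4% of all windows, GGGCGG in 59.1% and 35.7%, TATAAA in 11.4% and 13.6%, and TGANTCA, the AP-1 site, in 2.27% and 7.81%. No match printed above overlaps another. A match is a run of letters and not a bound site, and a missing match concerns these letters in this window only.

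The membrane-spanning, network-forming and remaining collagens were not called for treatment. Col26a1, a chain of little-known function, had the highest level per length of all chains, 9.73 FPKM as the mean of the 6 libraries. Col26a1 had 898, 674 and 711 normalized counts in vehicle 1 to 3 and 869.9, 855 and 754 in NGPF2 1 to 3. In pairs 2 and 3 the treated libraries lay above both vehicle libraries, at 0.21 ± 0.11 on the log2 scale (SE; adjusted p = 0.215), and vehicle 1 was the highest of the 6. Col25a1, the membrane-spanning collagen of neurons whose shed domain associates with amyloid plaques, was at 5.69 FPKM. Vehicle 1 to 3 held 628, 330.5 and 342 normalized counts of Col25a1, and NGPF2 1 to 3 held 642, 234.3 and 481. NGPF2 2 lay below and NGPF2 3 above their vehicle libraries. Col23a1, another membrane-spanning collagen, had 314, 183 and 106 normalized counts in vehicle 1 to 3 and 267, 58.6 and 84.3 in NGPF2 1 to 3. Its treated libraries of pairs 2 and 3 were lowest, at -0.98 ± 0.35 on the log2 scale (SE; adjusted p = 0.108). Col17a1, the hemidesmosome collagen, had 3.87, 8.04 and 4.77 normalized counts in vehicle 1 to 3 and 4.48, 3.59 and 8.97 in NGPF2 1 to 3. Neither it nor Col13a1, which stayed between 0 and 12.9, was tested.

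Col8a1, a network-forming chain of vessel walls, had 165, 36.6 and 13.1 normalized counts in vehicle 1 to 3 and 154, 8.37 and 8.97 in NGPF2 1 to 3. The vehicle sets differed by -2.85 ± 0.65 on the log2 scale (SE; adjusted p = 0.0396), a call that was lost without NGPF2 2 or without NGPF2 3. Col10a1, the chain of hypertrophic cartilage, had 108, 49.1 and 72.8 normalized counts in vehicle 1 to 3 and 97.9, 71.7 and 145 in NGPF2 1 to 3. Its groups overlapped. Col8a2, the partner of Col8a1, had 21.9, 18.8 and 11.9 normalized counts in vehicle 1 to 3 and 32.0, 7.17 and 0 in NGPF2 1 to 3. It was called in neither comparison. Col7a1, which forms the anchoring fibrils of skin, had 151, 10.7 and 22.7 normalized counts in vehicle 1 to 3 and 122, 7.17 and 12.6 in NGPF2 1 to 3. Pair 1 stood apart from all others, and the vehicle sets differed by -3.19 ± 0.61 on the log2 scale (SE; adjusted p = 0.0254). Col28a1, a chain known from peripheral glia, had 101, 14.3 and 13.1 normalized counts in vehicle 1 to 3 and 63.3, 16.7 and 21.5 in NGPF2 1 to 3. Its vehicle sets differed by -2.79 ± 0.40 on the log2 scale (SE; adjusted p = 0.0127).

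Summed over the 55 chains, the level per length was 107, 62.0 and 60.6 FPKM in vehicle 1 to 3, and 104, 44.6 and 46.1 FPKM in NGPF2 1 to 3. FPKM is scaled by library totals, a scale on which the median difference of all genes with NGPF2 in replicates 2 and 3 was -0.13. Fibrillar chains made up 17.0%, 7.63% and 7.72% of that sum in vehicle 1 to 3. In NGPF2 1 to 3 their share was 15.1%, 4.81% and 4.66%. Pair 1 thus had the larger fibrillar share in both groups, and within pairs 2 and 3 the treated libraries had the smaller. Type IV and laminin chains made up 36.2%, 48.6% and 49.0% in vehicle 1 to 3 and 37.4%, 46.2% and 41.3% in NGPF2 1 to 3. The order of single chains changed with the set as well. After Col26a1, the highest chain per length was Col6a1 in pair 1 (10.3 FPKM), Lamc1 in vehicle 2 and 3 (5.38 FPKM) and Col4a2 in NGPF2 2 and 3 (5.26 FPKM). Over all libraries, further chains of high level per length were Col25a1, Col4a1, Lamb1 and Col19a1, at 5.69, 5.42, 4.46 and 3.83 FPKM. Between Col4a2 (5.80), Col25a1 and Col4a1 the levels differ by less than the spread between libraries.

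**Figure D4:**
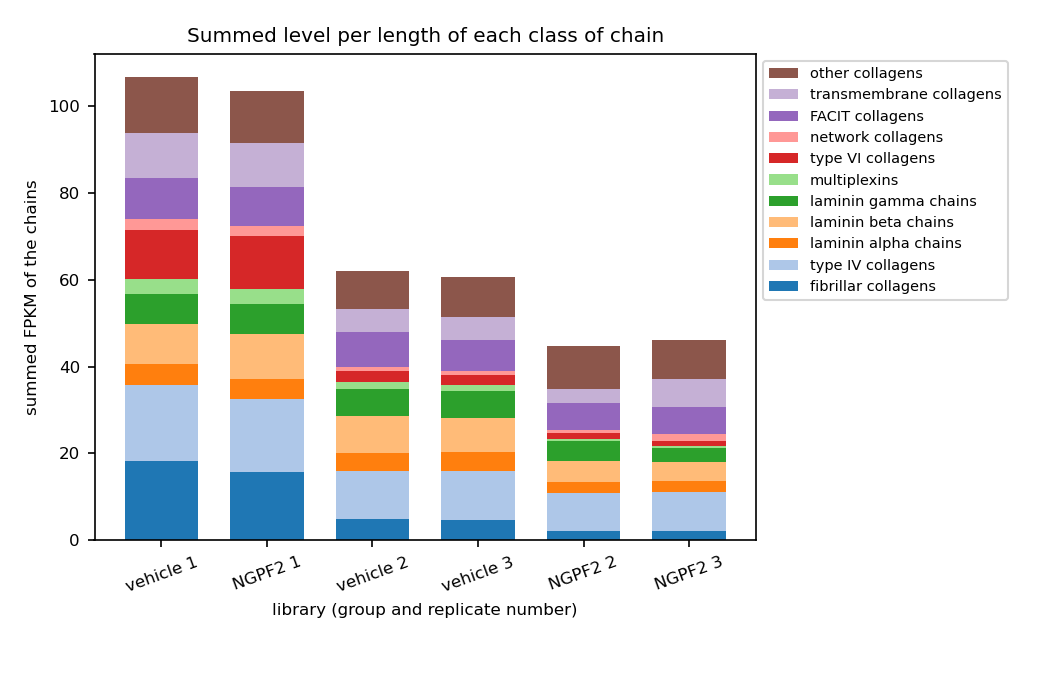
Summed FPKM (vertical axis, from 0) of each class of chain, stacked, in the 6 libraries (horizontal axis). The stacks reach 107 and 104 in vehicle 1 and NGPF2 1, 62.0 in vehicle 2, 60.6 in vehicle 3, 44.6 in NGPF2 2 and 46.1 in NGPF2 3, and the fibrillar layer at the base is thickest in pair 1.

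The difference between the treatment effects of the 2 library sets was called for Lamb2 and Col3a1. Lamb2 differed by -1.96 ± 0.22 on the log2 scale (SE; adjusted p = 0.0267), and Col3a1 by -1.80 ± 0.27 on the log2 scale (SE; adjusted p = 0.048), as the effect in replicates 2 and 3 minus that in pair 1. These 2 are 4.08% of the tested chains, against 1.77% of all genes lower and 0.721% higher. Pair 1 has 1 library in each group and takes its spread from the other libraries. Col3a1 lost its call without NGPF2 2 or without NGPF2 3. Both chains lost theirs without vehicle 2 or without vehicle 3, where no other gene was called either. For Lama1, with -2.78 ± 0.56 on the log2 scale (SE; adjusted p = 0.0798), and Col16a1, with -2.11 ± 0.34 on the log2 scale (SE; adjusted p = 0.0548), the difference between sets missed the threshold.

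Genes that build, anchor or bind these chains were read in the same comparison of replicates 2 and 3, beside 11.3% of all genes lower and 9.77% higher. Of 20 genes for collagen modification and folding, 8 were lower and none was higher. They include Serpinh1, the collagen chaperone of the endoplasmic reticulum (-1.91 ± 0.20, adjusted p = 0.00581), Fkbp10, a prolyl isomerase of collagen folding (-1.81 ± 0.20, adjusted p = 0.0064), and Plod1, a lysyl hydroxylase (-1.26 ± 0.15, adjusted p = 0.00742). Levels of Serpinh1 were 749, 998 and 705 normalized counts in vehicle 1 to 3 and 792, 242 and 206 in NGPF2 1 to 3. NGPF2 2 and 3 were below all 4 other libraries. Of 12 genes for propeptide cleavage and crosslinking, 2 were higher and 3 lower. Tll1, a procollagen C-proteinase, was higher (0.85 ± 0.11, adjusted p = 0.00985), and the lysyl oxidases Loxl3 (-1.60 ± 0.36, adjusted p = 0.037) and Loxl2 (-1.41 ± 0.33, adjusted p = 0.0416) were lower.

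Of 16 basement membrane partners, 7 were lower and 1 was higher. For Sparc, vehicle 1 to 3 had 5922, 5053 and 4714 normalized counts and NGPF2 1 to 3 had 5697, 1189.6 and 1080.4. Sparc binds type IV collagen outside the cell, and its treated libraries of pairs 2 and 3 were the lowest (-2.10 ± 0.09, adjusted p = 0.000885). Npnt, a ligand of integrin in basement membranes, was the gene that was higher (2.55 ± 0.17, adjusted p = 0.00215), and Smoc1 was lower (-1.05 ± 0.13, adjusted p = 0.00792). Of 16 receptors, 10 were lower and none was higher, led by Adgrg1, a receptor of type III collagen (-1.95 ± 0.10, adjusted p = 0.00128), and the laminin-binding integrin chains Itga6 (-1.56 ± 0.13, adjusted p = 0.00348) and Itgb1 (-0.96 ± 0.08, adjusted p = 0.00384). Counted as normalized counts, Adgrg1 was at 3166, 2862 and 2698 in vehicle 1 to 3 and at 3136, 768 and 677 in NGPF2 1 to 3. The treated libraries of pairs 2 and 3 again lay apart from the other 4. Of 13 matrix proteases and inhibitors, 4 were lower and 1 was higher. Timp3 (-2.53 ± 0.14, adjusted p = 0.00149) and Timp4 (-2.77 ± 0.19, adjusted p = 0.00245), inhibitors of metalloproteinases, and Mmp14, a membrane-bound collagenase (-2.59 ± 0.21, adjusted p = 0.00308), had the smallest p. Of 7 small leucine-rich proteoglycans, Bgn was lower (-3.85 ± 0.41, adjusted p = 0.00604), from 63.4 and 94.2 normalized counts in vehicle 2 and 3 to 3.59 and 5.38 in NGPF2 2 and 3, which are 3 counts in each. Podn (-1.05 ± 0.31, adjusted p = 0.0713) and Fmod (-1.45 ± 0.52, adjusted p = 0.113) had the next smallest p and were not called.

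Markers of other cell types differed in the same libraries, and their counts with NGPF2 in replicates 2 and 3 stand beside the same 11.3% of all genes lower and 9.77% higher. The neuron markers, 12 of 12 listed, summed to between 256290 and 285877 normalized counts in the vehicle and between 250855 and 373846 in the NGPF2 libraries, with none at 0, and 6 were higher and 1 lower with NGPF2 in replicates 2 and 3. Astrocyte markers were lower in 11 of 11 tested. Their sum was 25081, 67786 and 61044 in vehicle 1 to 3 and 28856, 18620 and 15374 in NGPF2 1 to 3, and Gjb6 was at 0 in NGPF2 2 and 3. Of that sum, Slc1a2 alone was 2697, 21468.5 and 18606 in vehicle 1 to 3 and 6056, 12812.5 and 10237 in NGPF2 1 to 3. The median over the 12 markers was 1730.5, 3319 and 3134 in vehicle 1 to 3 and 1770, 293 and 243 in NGPF2 1 to 3. Gfap had 2914, 9219 and 9265 normalized counts in vehicle 1 to 3 and 3029.5, 312 and 267 in NGPF2 1 to 3. Gfap, the astrocyte filament, was thus highest in vehicle 2 and 3 and lowest in NGPF2 2 and 3. Microglia markers were lower in 8 of 10 tested. They summed to between 1078 and 1903 in the vehicle and between 377 and 2084 in the NGPF2 libraries, with Aif1 and Tmem119 at 0 in NGPF2 2 and 3 and Cx3cr1 at 0 in NGPF2 2.

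Mural cell markers, genes of pericytes and smooth muscle, were lower in 5 and higher in 1 of 8 tested. Their sum was 3164, 1003 and 872 in vehicle 1 to 3 and 3013, 381 and 370 in NGPF2 1 to 3, so that pair 1 was highest, as for the summed fibrillar chains. Of the sum in vehicle 1, Acta2, Tagln and Rgs5 made up 1038, 771 and 380.5. Notch3, by contrast, had similar levels in vehicle 1 to 3, at 574, 547 and 530. Tagln was the marker that was higher with NGPF2 (1.45 ± 0.17, adjusted p = 0.00736). Kcnj8 was at 0 in vehicle 1, NGPF2 2 and NGPF2 3, Abcc9 in vehicle 3 and NGPF2 3, and Anpep in vehicle 3. Vehicle 1 to 3 held 1038, 28.6 and 17.9 normalized counts of Acta2, and NGPF2 1 to 3 held 956, 23.9 and 21.5. Acta2, the smooth muscle actin, differed between the vehicle sets by -5.46 ± 0.35 on the log2 scale (SE; adjusted p = 0.00207), whereas its treated and vehicle libraries within pairs 2 and 3 overlapped. Between the vehicle sets, 3 of the 8 mural cell markers were lower in vehicle 2 and 3, and 8 of the 11 astrocyte markers were higher, beside 9.42% of all genes lower and 10.5% higher. Fibroblast and meningeal markers were lower with NGPF2 in 2 of 9 tested. They summed to between 6826 and 9885 in the vehicle and between 4316 and 7028 in the NGPF2 libraries, of which Igfbp2 alone was 4137 to 9565. The sum therefore mostly follows Igfbp2. The median over the 11 markers found was 56.75, 31.3 and 20.3 in vehicle 1 to 3. In NGPF2 1 to 3 it was 49.9, 7.17 and 16.15, so that by the median pair 1 was highest here as well. Crabp2 was at 0 in NGPF2 2 and 3, Slc6a13 and Aldh1a2 in NGPF2 2 and Lum in NGPF2 3.

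Endothelial markers summed to at most 423 normalized counts in any library and were lower in 1 of 6 tested, with Cldn5, Tie1 and Ly6c1 each at 0 in at least 4 libraries. Of the endothelial sum, Egfl7 alone was 142 to 297. Oligodendrocyte lineage markers were lower in 5 of 11 tested, with sums of 5303 to 10584 in the vehicle and 3279 to 5314 in the NGPF2 libraries and Gpr17 at 0 in NGPF2 2 and 3. Olig1 alone was at 6065 and 5560 in vehicle 2 and 3 and at 1033 and 1072 in NGPF2 2 and 3. The myelin genes Mbp, Mog, Mag and Mobp were not called. Pdgfra and Cspg4 each stand in 2 of these lists, and Dcn and Lum are also small leucine-rich proteoglycans. In bulk RNA, fewer cells of a type and less RNA per cell cannot be told apart. The part of these cell types in the differences of the chains was not tested.

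**Figure D5:**
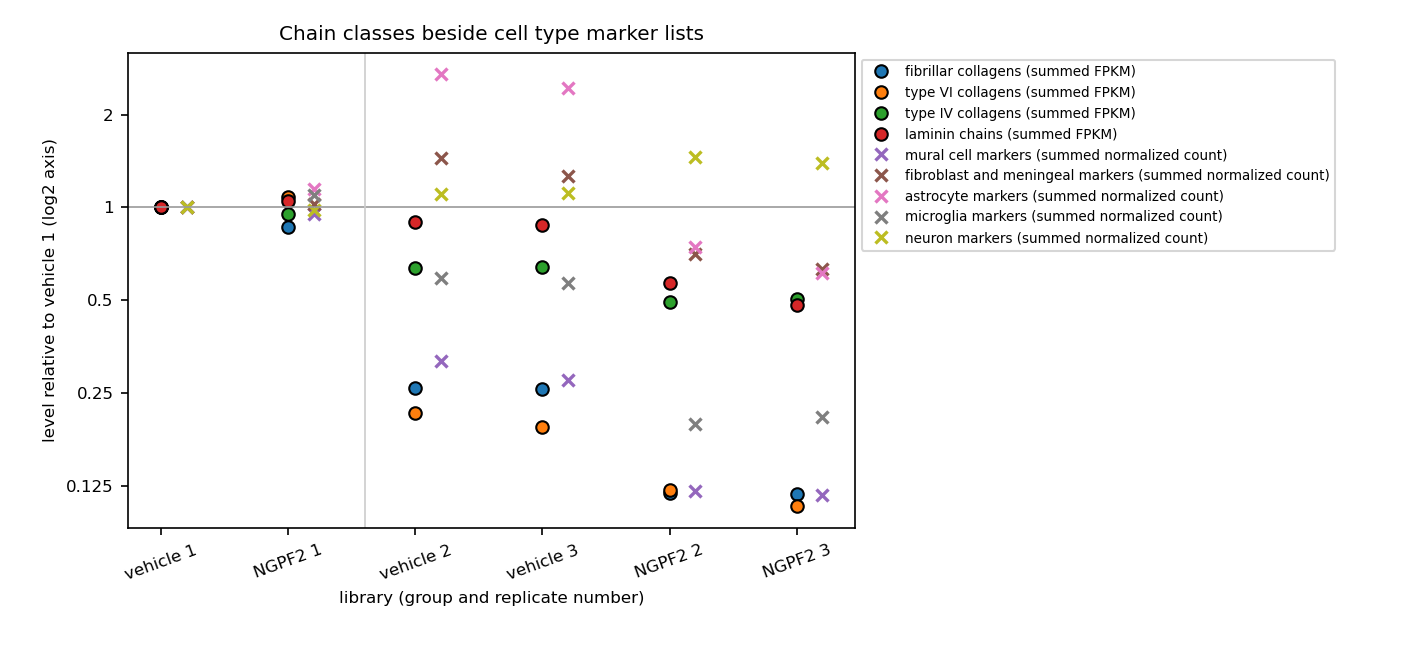
Summed level of 4 groups of chains (filled circles, FPKM) and of 5 marker lists (crosses, normalized counts) in the 6 libraries (horizontal axis), each relative to its own value in vehicle 1 (vertical axis, log2 scale). The circles are scaled by library totals and the crosses by size factors, so their heights are not directly comparable. Fibrillar and type VI chains and mural cell markers are lower in all 4 libraries right of the grey line than in pair 1 and lowest in NGPF2 2 and 3, and astrocyte markers rise above 2 in vehicle 2 and 3 and lie below 1 in NGPF2 2 and 3.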

How the data were processed

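The authors deposited 1 table for 6 libraries whose values, though named as FPKM, are log2 of a normalized count plus 1. Taken off the log2 scale, every value of a library (100% at a tolerance of 0.01 of a count) was a whole number of steps, so counts could be recovered. FastQC, STAR 2.5, Cuffnorm, DESeq 1.22.1 and mm10 are named in the submitters' processing notes, with no role or order. The annotation is not given in the sources used here. Columns of replicates 2 and 3 match the titles. Replicate 1 is, by initial and elimination, the column left in each group, though it carries another digit.

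Tests used the deposited log2 values and limma 3.58.1 (R 4.3.3, mean-variance trend, threshold 0.05). Genes needed a mean of 10 or more normalized counts, which replaced an FPKM filter, and 16653 of 31245 had it. The code was tested on simulated data. The model of 3 pairs has the pair as a block, from the series' statement of pairs. Deviations from group means correlated between same-numbered libraries across genes at 0.594, 0.299 and 0.333. These deviations include the difference between the library sets, so they cannot show that the numbers pair. Within replicates 2 and 3 the correlation was -0.0146. FPKM was computed from recovered counts, M21 transcript lengths and library totals, whereas normalized counts use size factors. Values in every library are given for up to 3 members a class by mean level and for every member called, and pathway lists name up to 3 genes of smallest p. The members and lists were chosen with earlier results of these data known. Symbols were found for 31185 identifiers. One chain is not reported here by name, though counts, medians and sums include it. Figures used matplotlib 3.10.9. Alternatives were another pseudocount, filter, scaling, trend, voom, the block and each library left out. The limit of 3 counts given for low values covers counting error only.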

Additional observations from a re-analysis of the deposited data

Results flagged for a closer look

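For 2 chains the effect of NGPF2 itself differed between the library sets, by limma's interaction of treatment with library set. For Lamb2 the effect in replicates 2 and 3 minus that in replicate 1 was -1.96 on the log2 scale (adjusted p = 0.0267), and for Col3a1 it was -1.80 (adjusted p = 0.048). Within pairs, Lamb2 was at 477 normalized counts in NGPF2 1 against 428 in vehicle 1, but at 148 and 158 in NGPF2 2 and 3 against 564 and 508 in vehicle 2 and 3. Col3a1 was at 622 against 645 in pair 1, and at 56.2 and 50.2 against 206 and 184 in pairs 2 and 3. Replicate 1 has 1 library in each group, which is assumed to vary like the others.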

How the results depend on the processing

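No chain called in a comparison changed its direction under any alternative run. Counts of called chains did change. Over the 3 pairs the count was 0, also with no replicate block. Leaving out 1 pair gave 0 to 16, and the 16 without pair 1 stood beside 3275 of 16653 genes. Over all genes, the calls in replicates 2 and 3 numbered 3511 of 16653, and 1074 of 31245 with no filter. They numbered 1535 with no trend, 3269 with quantile scaling and 3275 with the replicate block. Among the chains the count in replicates 2 and 3 was 15. It was 3 with no filter, where Lamb2 and Col3a1 kept their calls and Col24a1 was called higher, 9 with no trend (without Col4a1, Col4a6, Col6a1, Col11a1, Col19a1, Col22a1 and Lama2, and with Col9a2), 10 with quantile scaling (where those lost included Col4a6, Col6a1, Col9a1 and Col11a1) and 16 with the replicate block, where Col9a1 and Col11a1 lost their calls and Col1a2, Col5a1 and Col9a3 were called. Leaving out 1 library gave 0 to 15. For the difference between library sets it was 2 of 49 chains, beside 415 of 16653 genes. With no filter it was 4 of 55 chains, beside 4684 of 31245 genes. It was 1 with quantile scaling (Lamb2), beside 486 genes. With no trend it was 0 (13 chains at an unadjusted p under 0.05), beside 22 genes. It was 6 with voom, beside 1368 genes, and 3 with the replicate block, beside 526. Leaving out 1 library gave 0 to 2. Between the vehicle sets it was 19, with 7 under no filter and 7 under no trend, and leaving out 1 library gave 0 to 23. Where a group keeps a single library, that library is assumed to vary like the others. Within replicates 2 and 3 the deviations of same-numbered libraries correlated at -0.0146, so the number is not taken to pair them. At 3 counts, chains at or below 5.38 normalized counts cannot be told from 0 in the shallowest library.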
